A study of Rattus norvegicus with 36 samples.

Results

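Liver RNA of male rats given PBDE47 at 485 mg/kg, the top dose of the series, was compared with liver RNA of rats given the vehicle alone. PBDE47 is a brominated diphenyl ether congener of the kind used in flame retardant mixtures. The comparison took the 6 arrays whose treatment label gives 485 mg/kg and the 6 whose label gives vehicle, 12 of the 36 arrays of the series, with all 31042 probe sets other than the manufacturer's control probe sets. Rats of the dosed group were male Harlan Sprague Dawley animals, 7 weeks old at the start, dosed by gavage once a day for 5 days with 485 mg/kg PBDE47 dissolved in corn oil, at 5 mL/kg body weight. Rats of the vehicle group were of the same strain, sex and age and received corn oil at 0 mg/kg PBDE47 on the same schedule. A further group of 6 arrays, from rats given 48.5 mg/kg in the same way, served for the test against the next lower dose. The remaining groups entered through the shared estimate of the spread. The left liver lobe was taken 1 day after the last dose. The labels number the replicates of a group without naming animals, so p-values measure the spread between these samples. The arrays describe males after a short exposure, and each holds RNA of a whole piece of lobe. In such bulk tissue, fewer cells of a type and less RNA per cell cannot be told apart.

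The liver meets foreign compounds with a small set of sensors. The aryl hydrocarbon receptor (AhR) drives the CYP1 enzymes, the nuclear receptors CAR and PXR drive the CYP2B and CYP3A enzymes with their partner transferases and transporters, and NRF2 drives genes of glutathione and NADPH supply when electrophiles or oxidants accumulate. Enlargement of the smooth endoplasmic reticulum and a lower circulating thyroid hormone level through faster glucuronidation are known in rodents given inducers of the CAR type. Hepatocytes also make most plasma proteins and carry the urea cycle, amino acid catabolism, bile acid synthesis and gluconeogenesis, so these programmes were read beside the sensors' targets.

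Values are the deposited log2 RMA values, on which a step of 1 is a 2-fold difference. A probe set was called when the adjusted p of the limma fit (Benjamini-Hochberg over 31042 probe sets) was below 0.05, and a gene stands for its brightest own probe set. At 485 mg/kg 4665 probe sets were called, 15% of those tested, 2424 higher (7.81%) and 2241 lower (7.22%). Among 14217 genes, 1630 were higher (11.5%) and 1341 lower (9.43%), together 20.9%. All 6 arrays of the dosed group lay above the vehicle range in 948 genes (6.67%) and below it in 617 (4.34%). Most calls were small: the median fold was 1.28 for rises and 1.26 for falls, while 146 probe sets rose and 89 fell by at least 2-fold. With a required change of 1.5-fold as the null, 129 probe sets were higher and 48 lower. In the plot of change against level, the labelled rises ran from genes low in vehicle livers, such as Cyp1a1, to genes high on the array, such as Aldh1a1.

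**Figure D1:**
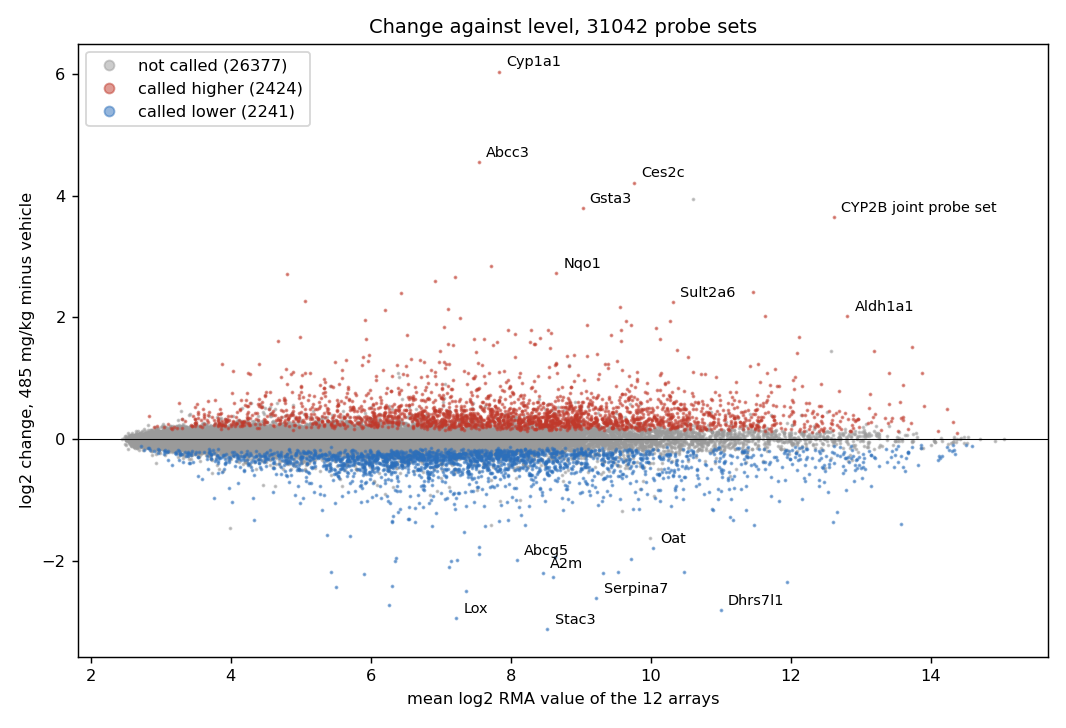
Log2 change (485 mg/kg minus vehicle, vertical axis) against the mean log2 RMA value of the 12 arrays (horizontal axis) for 31042 probe sets, with 2424 called higher in red, 2241 called lower in blue and the rest in grey. The CYP2B joint probe set and Aldh1a1 were high on the array and rose by 3.65 and 2.02, while Cyp1a1 had the largest rise at 6.03 and Stac3 the largest fall at -3.12 of the labelled probe sets.

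No array of the 12 stood apart. Across probe sets, arrays correlated at 0.991 to 0.995 within the dosed group, 0.993 to 0.995 within vehicle and 0.987 to 0.991 between the groups. The gap of the 3' over the 5' probe sets of control genes, which widens as RNA degrades, was 0.776 ± 0.0425 at 485 mg/kg and 0.813 ± 0.0652 in vehicle livers (SD, n = 6 each, exact permutation p = 0.262, two-sided, smallest possible 0.00216). The median change over all probe sets was -0.01. Of the hepatocyte markers, 9 were measured, and albumin (Alb) lay at 15.02 to 15.06 (median 15.05) at 485 mg/kg, against 15.05 to 15.07 (median 15.05) in vehicle livers. These values are near the upper end of the array's scale. Of the 9 markers 5 fell and 0 rose, with a median of -0.18. No array came with detection calls. A level below the lowest array median, 5.31, lies in the dimmer part of the array, and a fold that starts or ends there is not exact.

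The AhR list was led by Cyp1a1, which oxidises planar aromatic compounds. Cyp1a1 lay at 9.36 to 11.55 (median 11.01) at 485 mg/kg, against 4.70 to 4.96 (median 4.80) in vehicle livers (log2 change 6.03, SE 0.26, adjusted p = 3.53e-19). Vehicle levels were below 5.31, so the rise can be larger than this value. Every dosed array lay above the vehicle range, and the lowest, replicate 1, was set off from the other dosed arrays. Of 7 measured members, 3 rose and 0 fell, with a median of 0.07 against -0.01 over all genes. The receptor's own transcript, Ahr, lay at 5.77 to 6.67 (median 6.19) at 485 mg/kg, against 4.84 to 5.65 (median 5.50) in vehicle livers (log2 change 0.76, SE 0.16, adjusted p = 0.000541), with no overlap. Cyp1a2, a constitutive CYP1 enzyme of the liver, rose by 0.30 to 13.33 to 13.78 (median 13.63) at 485 mg/kg, against 13.10 to 13.65 (median 13.26) in vehicle livers (adjusted p = 0.00475), and the groups overlapped. That call was lost when only the 12 arrays entered the fit (adjusted p = 0.0624). Cyp1b1, another CYP1 enzyme, changed by -0.09 (adjusted p = 0.569) and Tiparp, a feedback target of the receptor, by -0.19 (adjusted p = 0.323). Neither was called. Without dosed replicate 5 or 6 or vehicle replicate 4, 1 member of the list was called lower.

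Among CAR and PXR targets, 18 of 19 measured members rose and 1 fell, with a median of 1.24. Cyp2b1 and Cyp2b2, the classic CAR targets, share a probe set on this array, and their joint value lay at 14.35 to 14.55 (median 14.44) at 485 mg/kg, against 10.02 to 11.19 (median 10.90) in vehicle livers (log2 change 3.65, SE 0.17, adjusted p = 3.05e-18). Abcc3, which exports glucuronides into blood, lay at 9.63 to 10.05 (median 9.82) at 485 mg/kg, against 4.94 to 5.63 (median 5.28) in vehicle livers (log2 change 4.55, SE 0.15, adjusted p = 4.98e-23), with the same caution on its dim vehicle levels. Ces2c, a carboxylesterase, lay at 11.30 to 12.27 (median 11.89) at 485 mg/kg, against 7.52 to 7.87 (median 7.62) in vehicle livers (log2 change 4.21, SE 0.13, adjusted p = 4.98e-23). None of these overlapped between the groups, and the gap between groups exceeded the width of either. Cyp3a23-3a1, the main inducible CYP3A of the rat, lay at 14.36 to 14.61 (median 14.48) at 485 mg/kg, against 12.65 to 13.24 (median 13.06) in vehicle livers (log2 change 1.51, SE 0.10, adjusted p = 1.04e-13). Ugt2b1, a phenobarbital-inducible glucuronosyltransferase, lay at 13.85 to 14.01 (median 13.92) at 485 mg/kg, against 12.12 to 12.84 (median 12.47) in vehicle livers (log2 change 1.45, SE 0.11, adjusted p = 1.83e-12). Aldh1a1, a retinal dehydrogenase, rose by 2.02 and Por, the reductase that feeds electrons to microsomal P450s, by 1.94. All 6 dosed arrays lay above the vehicle range for each of these 4 genes. The dosed levels of the CYP2B joint probe set and of Cyp3a23-3a1 were near the upper end of the array's scale.

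Akr1b7, an aldose reductase-like enzyme, behaved less evenly. Its values were 3.58 to 9.18 (median 6.18) at 485 mg/kg, against 3.05 to 3.93 (median 3.44) in vehicle livers (log2 change 2.72, SE 0.53, adjusted p = 0.000253), so the groups overlapped at their lower edge. The fall within the list was Cyp2b3, a constitutive CYP2B of rat liver, at 12.76 to 12.96 (median 12.82) at 485 mg/kg, against 13.14 to 13.29 (median 13.22) in vehicle livers (log2 change -0.37, SE 0.04, adjusted p = 1.37e-08), also without overlap. Of 19 members, 15 lay wholly above the vehicle range and 1 wholly below it. The transcripts of the receptors were not called. Nr1i3, which encodes CAR, changed by -0.45 (adjusted p = 0.0732) and Nr1i2, which encodes PXR, by -0.02 (adjusted p = 0.919). Nr1i3 was called lower without dosed replicate 2 (adjusted p = 0.0235) or 3 (0.0442) and with the filter on dim probe sets (0.0469).

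**Figure D2:**
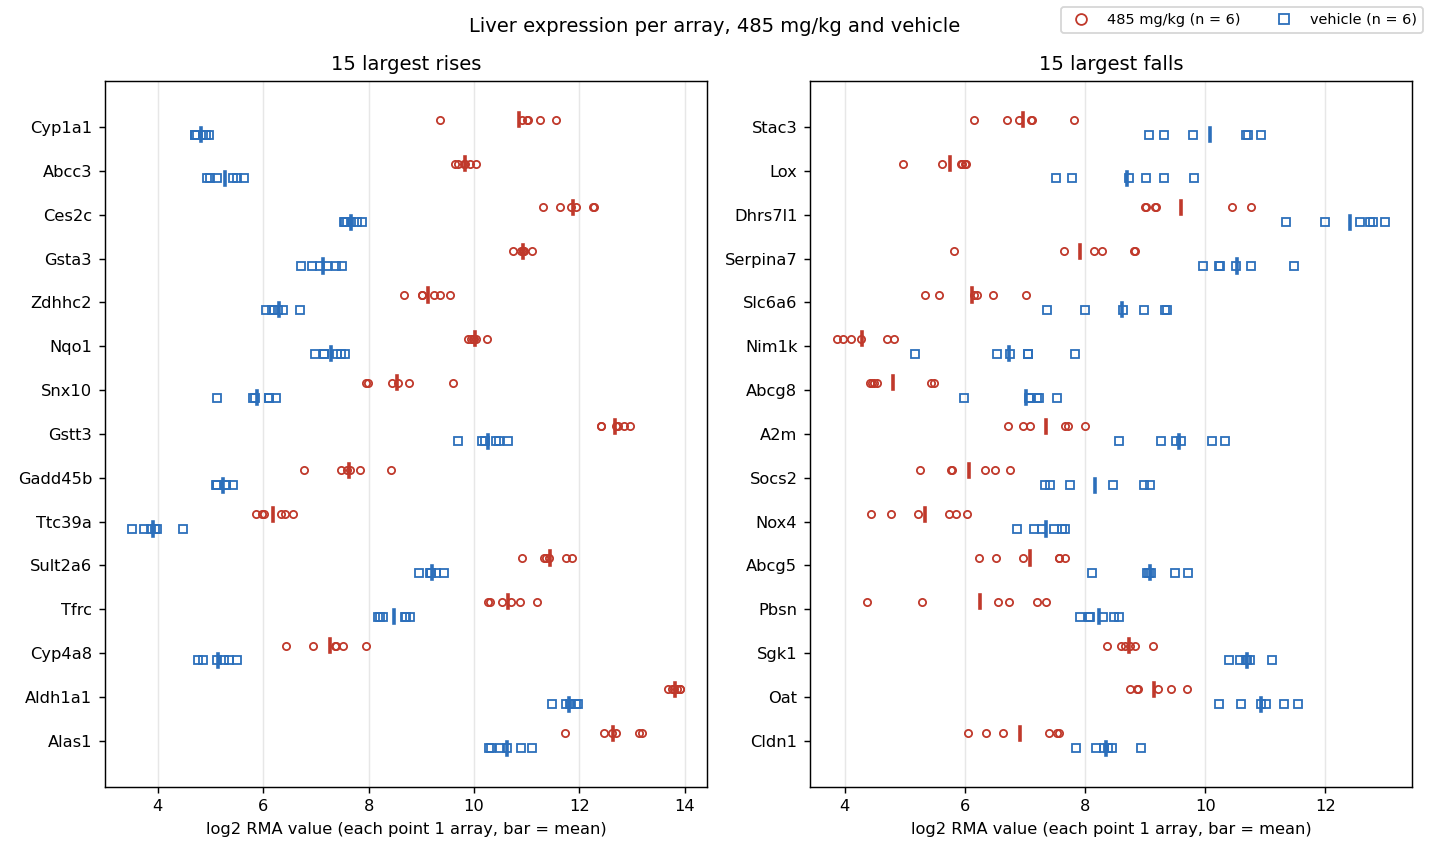
Log2 RMA value of each array (horizontal axis, points, with the group mean as a bar) for the 15 genes with the largest rises (left panel) and the 15 with the largest falls (right panel), 485 mg/kg in red circles above vehicle in blue squares, n = 6 each. No gene's groups overlap, since non-overlap was required for the plot, and the spread within a group is wider among the falls, such as Pbsn at 4.37 to 7.34 (median 6.65) at 485 mg/kg, against 7.91 to 8.56 (median 8.19) in vehicle livers.

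Outside these inducible families the P450s leaned the other way. Of 27 other measured P450s, 2 rose, 7 fell and 18 were not called, with a median of -0.04 against -0.01 over all genes. The shares, 7.41% higher and 25.9% lower, stand beside 11.5% and 9.43% over all genes. Cyp4a8, which rose, was counted with the fatty acid oxidation genes below. Cyp2t1 fell by 0.78 and Cyp4f6, a fatty acid and leukotriene hydroxylase, by 0.57, both without overlap. Cyp17a1, the steroid 17-alpha-hydroxylase, fell by 0.90 with overlap, while Cyp2j4, an arachidonic acid epoxygenase, rose by 0.75. The male-specific Cyp2c11 changed by -0.04 (adjusted p = 0.77) and lay at 13.57 to 13.88 (median 13.74) at 485 mg/kg, against 13.67 to 13.87 (median 13.77) in vehicle livers. Cyp2e1, which metabolises ethanol and small solvents, changed by -0.15 (adjusted p = 0.153), and quantile normalization of the deposited values brought it below the threshold at -0.20 (adjusted p = 0.0334).

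The NRF2 list, which holds the factor's targets and the pentose phosphate enzymes, was mostly higher. Of 23 measured members 19 rose and 0 fell, the median was 0.70, and 17 lay wholly above the vehicle range. Nqo1, which reduces quinones, lay at 9.89 to 10.24 (median 9.995) at 485 mg/kg, against 6.99 to 7.56 (median 7.28) in vehicle livers (log2 change 2.73, SE 0.12, adjusted p = 1.76e-18). Gsr, which regenerates reduced glutathione, lay at 10.56 to 10.75 (median 10.64) at 485 mg/kg, against 8.56 to 8.87 (median 8.82) in vehicle livers (log2 change 1.87, SE 0.10, adjusted p = 1.43e-16). Akr7a3, an aflatoxin aldehyde reductase, lay at 12.71 to 13.12 (median 12.97) at 485 mg/kg, against 10.75 to 11.55 (median 11.32) in vehicle livers (log2 change 1.68, SE 0.16, adjusted p = 3.4e-10). Each dosed array exceeded each vehicle array for all 3. Me1 and Tkt, which serve NADPH supply through malic enzyme and transketolase, rose by 1.64 and 1.23, and Srxn1, which repairs oxidised peroxiredoxins, by 1.36. The transcript of the factor itself, Nfe2l2, changed by -0.02 (adjusted p = 0.947).

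To let the sequence upstream of these genes be read beside their values, the 250 bases before the annotated start are given for Nqo1 and Akr7a3, the leading NRF2 members with an entry in the RefSeq promoter table (GRCr8), and for Ces2c, the leading CAR and PXR member with an entry. Capitals mark the letters GCGTG, the core bound by AhR with its partner ARNT, read as CACGC on the other strand. The window of Nqo1 is chr19:52220268-52220517 on the minus strand, that of Akr7a3 chr5:156876471-156876720 on the plus strand and that of Ces2c chr1:270376951-270377200 on the plus strand.
Nqo1: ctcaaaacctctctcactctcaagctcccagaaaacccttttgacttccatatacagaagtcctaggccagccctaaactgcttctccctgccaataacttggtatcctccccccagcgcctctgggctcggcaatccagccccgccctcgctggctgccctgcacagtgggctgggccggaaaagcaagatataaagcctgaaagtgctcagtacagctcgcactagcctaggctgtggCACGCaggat
Akr7a3: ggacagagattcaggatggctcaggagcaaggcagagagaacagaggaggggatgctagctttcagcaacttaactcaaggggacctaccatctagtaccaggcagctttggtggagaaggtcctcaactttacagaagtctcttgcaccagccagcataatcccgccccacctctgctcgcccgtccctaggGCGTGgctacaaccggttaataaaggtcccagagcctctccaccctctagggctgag
Ces2c: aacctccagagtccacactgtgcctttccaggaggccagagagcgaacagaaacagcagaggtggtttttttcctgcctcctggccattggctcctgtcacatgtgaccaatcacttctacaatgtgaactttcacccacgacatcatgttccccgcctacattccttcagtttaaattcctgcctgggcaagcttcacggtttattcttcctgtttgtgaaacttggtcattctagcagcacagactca

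The match in Nqo1 begins 10 bases before the start and that in Akr7a3 57 bases before it. None of the windows of Ces2c, Ahr and Cyp1a2 held GCGTG, and none of these 5 windows held TGACNNNGC, the core of the antioxidant response element, on either strand. The motifs were searched on both strands over 27457 promoters of full length. GCGTG was in 46.5% of the promoters of genes that rose, 38.6% of those of genes that fell, 40.7% of those of all measured genes and 27.0% of the whole table. Among genes that rose by at least 2-fold it was in 39.8%, below the share of measured genes. TGACNNNGC was in 13.8% of promoters of genes that rose, 11.6% of those of genes that fell and 12.2% of those of measured genes. Of 5 AhR list members with a promoter, 3 held GCGTG (60%) and 0 held TGACNNNGC. Cyp1a1 had no entry in the promoter table, so its window was not searched. Among NRF2 list members with a promoter, 12 of 21 held GCGTG (57.1%) and 5 held TGACNNNGC (23.8%). GCGTG was in 11.8% of 17 promoters of CAR and PXR targets, 37.5% of 16 of glutathione transferases and 58.6% of 29 of the proteasome. TGACNNNGC was in 0 of those 17 promoters, in 25% of those of the transferases and in 17.2% of those of the proteasome. These are counts of letters in a short window and do not show binding. Sequence further from the start was not searched, so a window without a motif does not show that the gene lacks it.

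Glutathione transferases, which conjugate electrophiles, were mostly higher. Of 19 glutathione transferases measured, 13 rose and 0 fell, with a median of 0.58. Gsta3, an alpha class transferase, lay at 10.75 to 11.09 (median 10.94) at 485 mg/kg, against 6.71 to 7.49 (median 7.14) in vehicle livers (log2 change 3.79, SE 0.17, adjusted p = 1.18e-18). Gstt3, of the theta class, lay at 12.40 to 12.95 (median 12.72) at 485 mg/kg, against 9.70 to 10.64 (median 10.31) in vehicle livers (log2 change 2.41, SE 0.16, adjusted p = 1.04e-13). Neither overlapped between groups. Gsta4, which conjugates lipid peroxidation aldehydes, rose by 1.42, Gstm4 by 1.23, the microsomal Mgst2 by 1.02 and Gstm1 by 0.89. Members share sequence within a class, and cross-hybridisation between them was not tested.

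Glucuronidation and sulfation moved in both directions, with 9 of 18 measured members higher, 4 lower and a median of 0.17. Sult2a6, a hydroxysteroid sulfotransferase, lay at 10.91 to 11.87 (median 11.40) at 485 mg/kg, against 8.97 to 9.43 (median 9.18) in vehicle livers (log2 change 2.24, SE 0.30, adjusted p = 6.2e-07). Sult1c2, another sulfotransferase, lay at 7.10 to 7.98 (median 7.51) at 485 mg/kg, against 8.60 to 9.20 (median 8.89) in vehicle livers (log2 change -1.41, SE 0.15, adjusted p = 4.69e-09). Both were free of overlap in opposite directions. The glucuronosyltransferases Ugt2a1 and Ugt2b10 rose by 1.04 and 0.94, and Sult2b1, a cholesterol sulfotransferase, by 0.64.

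Among 35 other oxidoreductases and esterases, 12 rose and 4 fell, with a median of 0.07. Without vehicle replicate 4 the falls numbered 7. The largest change was the fall of Dhrs7l1, a short-chain dehydrogenase, at 8.998 to 10.76 (median 9.17) at 485 mg/kg, against 11.35 to 12.99 (median 12.66) in vehicle livers (log2 change -2.81, SE 0.33, adjusted p = 5.44e-08). Its vehicle arrays all lay above its dosed arrays. Aox1, the aldehyde oxidase, rose by 1.14, Akr1c14, a 3-alpha-hydroxysteroid dehydrogenase, by 0.90, and Adh7, a retinol-active alcohol dehydrogenase, by 0.83. Fmo1, a flavin monooxygenase, fell by 0.90 and Aldh1b1, a mitochondrial aldehyde dehydrogenase, by 0.79.

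Heme genes leaned upward. Of 14 measured members 6 rose and 1 fell, with a median of 0.17, and Alas1, which catalyses the committed step of heme synthesis and was counted with the CAR and PXR targets, lay at 11.72 to 13.20 (median 12.66) at 485 mg/kg, against 10.28 to 11.10 (median 10.56) in vehicle livers (log2 change 2.01, SE 0.18, adjusted p = 1.06e-10). Blvrb, a biliverdin reductase, rose by 1.02, Tspo, a mitochondrial porphyrin-binding protein, by 0.85, and Fech, the last enzyme of the pathway, by 0.41. The electron carriers Cyb5a and Cyb5b rose by 0.54 and 0.27 and the reductase Cyb5r3 by 0.37. Hpx, the plasma heme scavenger, fell by 0.15, a call lost with the 12 arrays alone (adjusted p = 0.0559) and joined by a second lower member without vehicle replicate 3 or dosed replicate 4.

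Iron genes moved both ways, with 4 of 17 measured higher and 4 lower and a median of -0.06. Tfrc, the transferrin receptor, lay at 10.26 to 11.19 (median 10.61) at 485 mg/kg, against 8.17 to 8.78 (median 8.49) in vehicle livers (log2 change 2.17, SE 0.17, adjusted p = 3.36e-12), far above its vehicle range. Aco1, whose protein binds iron-responsive elements when iron is scarce, rose by 0.71, Hfe, a partner of the receptor, by 0.52, and the iron importer Slc11a2 by 0.40. Steap3, an endosomal ferrireductase, fell by 0.82 and Slc30a10, a manganese exporter, by 0.54.

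Transporters other than Abcc3 mostly fell or were not called. None of 11 measured uptake transporters rose and 5 fell, with a median of -0.12. Slc22a8, an organic anion transporter, lay at 9.03 to 10.21 (median 9.75) at 485 mg/kg, against 10.60 to 11.01 (median 10.89) in vehicle livers (log2 change -1.10, SE 0.12, adjusted p = 1.24e-08), with no overlap. Slc16a1, a monocarboxylate carrier, fell by 0.84, the prostaglandin carrier Slco2a1 by 0.44, Slc22a7 by 0.40 and Slc10a1, the sodium-coupled bile acid importer, by 0.27. Slco1a1 and Slco1b2, organic anion transporters of the sinusoidal membrane, changed by -0.11 and -0.12 (adjusted p = 0.317 and 0.234), and neither was called.

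Of 13 efflux transporters 1 rose and 6 fell, with a median of -0.26. Abcg5 and Abcg8 form the canalicular pump for cholesterol and plant sterols. Abcg5 lay at 6.24 to 7.67 (median 7.27) at 485 mg/kg, against 8.11 to 9.71 (median 9.07) in vehicle livers (log2 change -2.0, SE 0.27, adjusted p = 5.12e-07). Abcg8 lay at 4.42 to 5.48 (median 4.51) at 485 mg/kg, against 5.99 to 7.53 (median 7.14) in vehicle livers (log2 change -2.22, SE 0.27, adjusted p = 8.5e-08), and most of its dosed values were under 5.31, so its fall can be larger. Both were clear of their vehicle ranges. The phospholipid floppase Abcb4 fell by 0.87 and Abcc9, a subunit of potassium channels, by 0.87. The porphyrin transporter Abcb6 rose by 0.55. Abcb11, the bile salt export pump, changed by -0.09 (adjusted p = 0.42).

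**Figure D3:**
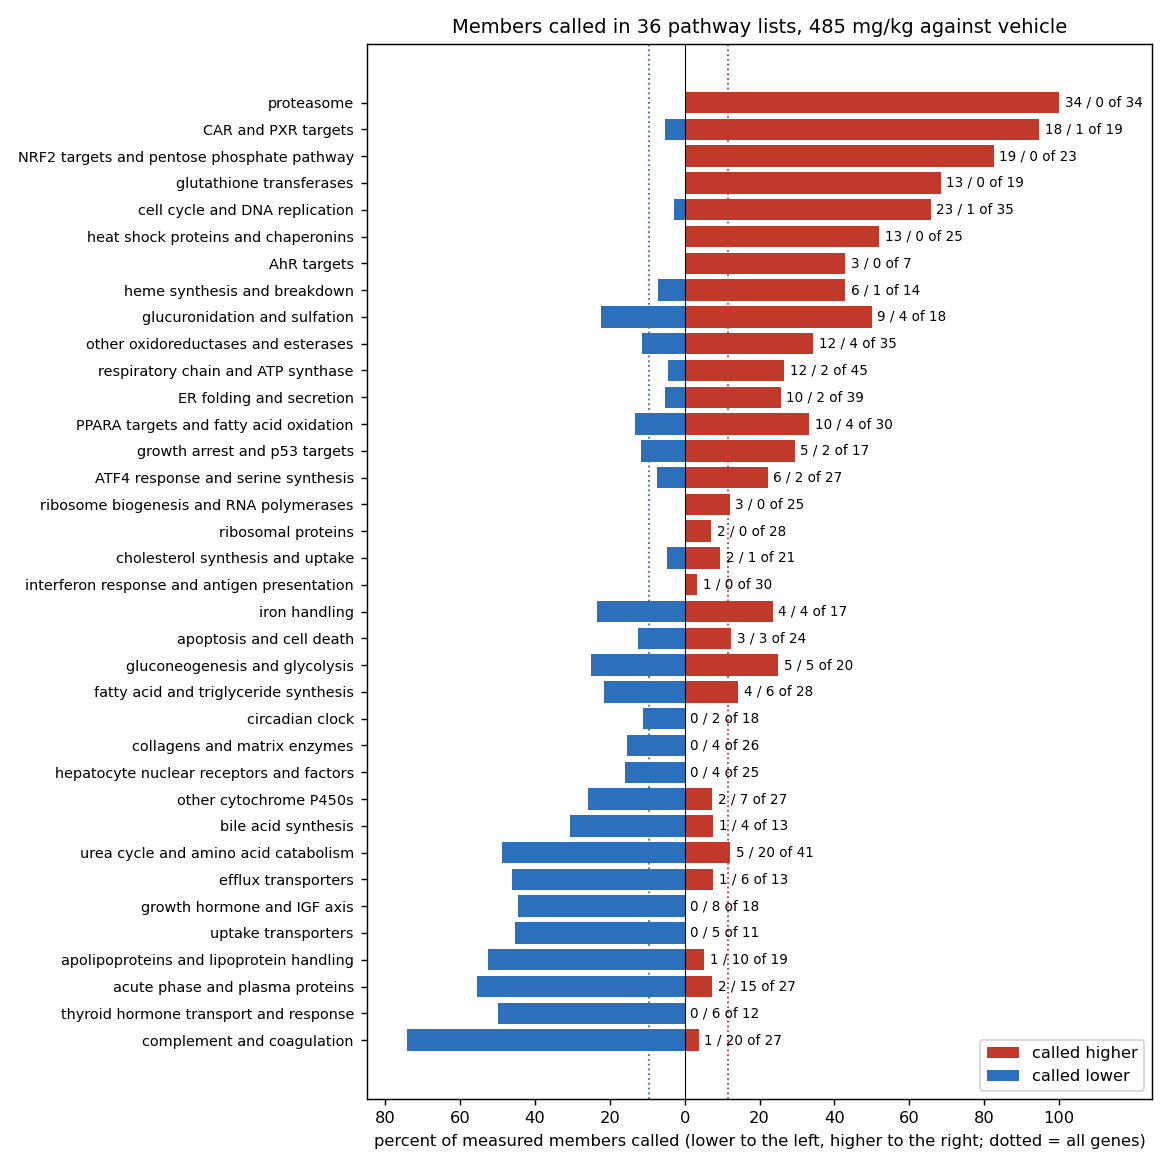
Percent of the measured members of 36 pathway lists called higher (red, to the right) or lower (blue, to the left) at 485 mg/kg against vehicle, with the counts higher and lower of the measured members beside each bar and dotted lines at the shares over all genes (11.5% and 9.43%). The proteasome (34 of 34 higher) and CAR and PXR targets (18 of 19) stand at the top, and complement and coagulation (20 of 27 lower) at the bottom.

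Genes of the proteasome, the protease that degrades ubiquitinated proteins, showed the most even response. All 34 measured members rose, 30 of them lay wholly above the vehicle range, and the median was 0.46. Psmd14, the deubiquitinase of the lid, lay at 10.57 to 10.69 (median 10.61) at 485 mg/kg, against 9.79 to 9.98 (median 9.93) in vehicle livers (log2 change 0.72, SE 0.05, adjusted p = 3.39e-13). Psma1, of the outer ring of the core, lay at 11.37 to 11.62 (median 11.51) at 485 mg/kg, against 10.71 to 10.88 (median 10.81) in vehicle livers (log2 change 0.70, SE 0.06, adjusted p = 5.71e-12). The sizes were modest but the vehicle arrays were tight. Psmb3 rose by 0.64, the base ATPase Psmc5 by 0.63, Psmd12 by 0.59 and Psmd2 by 0.58. The assembly factor Pomp had the smallest rise, 0.20, with overlap, and its call was lost with the 12 arrays alone (adjusted p = 0.0631).

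Cytosolic and mitochondrial chaperones moved in the same direction, with 13 of 25 higher, 0 lower and a median of 0.28. Hspd1, the mitochondrial chaperonin, lay at 12.75 to 12.96 (median 12.88) at 485 mg/kg, against 12.36 to 12.48 (median 12.46) in vehicle livers (log2 change 0.43, SE 0.05, adjusted p = 1.27e-07), with no overlap. Cct2, a subunit of the cytosolic chaperonin, rose by 0.42, the co-chaperones Ahsa1 and Chordc1 by 0.47 and 0.43 and the small heat shock protein Hspb8 by 0.53. Of 39 genes of folding and secretion in the endoplasmic reticulum (ER), 10 rose and 2 fell, with a median of 0.10. Sec24d, a coat protein of export vesicles, rose by 0.38, Sdf2l1 by 0.37 and the ER sheet protein Ckap4 by 0.36, while Pdia5, a disulfide isomerase, fell by 1.03. The ER chaperone Hspa5, a standard marker of ER stress, changed by 0.03 (adjusted p = 0.799) and lay at 12.67 to 12.82 (median 12.69) at 485 mg/kg, against 12.54 to 12.86 (median 12.66) in vehicle livers. Without dosed replicate 5, vehicle replicate 3 or vehicle replicate 4, 1 ER member was lower.

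The ATF4 list, genes of the amino acid response and of serine synthesis, had 6 of 27 members higher and 2 lower, with a median of 0.03. The higher count was 3 without dosed replicate 2, dosed replicate 6 or vehicle replicate 1 and with the 12 arrays alone. The lower count was 1 without dosed replicate 1, 3, 4 or 5 or vehicle replicate 2, 4, 5 or 6, and 4 without vehicle replicate 1. Slc3a2 and Slc7a5, which together import large neutral amino acids, rose by 0.70 and 0.69, and Shmt2, a mitochondrial serine hydroxymethyltransferase, by 0.32. Atf4 itself changed by 0.03 (adjusted p = 0.91) and its target Asns, asparagine synthetase, by 0.31 (adjusted p = 0.501).

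Cell cycle and DNA replication genes were higher, from low levels. Of 35 measured members 23 rose and 1 fell, with a median of 0.36, but 4 lay wholly above the vehicle range. A filter that kept the brighter 15520 probe sets left 12 members higher. Cdk1, the mitotic kinase, lay at 6.36 to 7.46 (median 7.02) at 485 mg/kg, against 5.50 to 6.79 (median 5.78) in vehicle livers (log2 change 1.07, SE 0.19, adjusted p = 8.35e-05). Ccna2, cyclin A, lay at 4.49 to 6.19 (median 5.48) at 485 mg/kg, against 3.97 to 5.48 (median 4.11) in vehicle livers (log2 change 1.07, SE 0.25, adjusted p = 0.00222). Mki67, a marker of cycling cells, lay at 4.03 to 5.27 (median 4.57) at 485 mg/kg, against 3.59 to 4.35 (median 3.77) in vehicle livers (log2 change 0.75, SE 0.15, adjusted p = 0.000489). In all 3 the groups overlapped, and for Mki67 both groups were below 5.31. Bub1 of the spindle checkpoint and Racgap1 of cytokinesis rose by 0.77 and 0.77. The transcription factor Myc rose by 1.09 (adjusted p = 0.0241), a call lost without dosed replicate 4 (0.0836) or vehicle replicate 1 (0.057). Cyclin D1 (Ccnd1), which acts in G1, fell by 0.58 (adjusted p = 0.0243), and that call was lost without dosed replicate 1, 4 or 6 or vehicle replicate 4 or 5, with adjusted p values up to 0.0759, and with the 12 arrays alone (0.0602).

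Among 17 genes of growth arrest and p53 response 5 rose and 2 fell, with a median of 0.03. The lower count was 0 without vehicle replicate 2 and 1 without dosed replicate 2, 3 or 5 or vehicle replicate 5. Gadd45b, a stress-inducible growth arrest gene, lay at 6.78 to 8.43 (median 7.61) at 485 mg/kg, against 5.11 to 5.43 (median 5.21) in vehicle livers (log2 change 2.39, SE 0.21, adjusted p = 3.93e-11). Mdm2, which targets p53 for degradation, lay at 8.75 to 9.90 (median 9.16) at 485 mg/kg, against 7.84 to 8.24 (median 8.01) in vehicle livers (log2 change 1.22, SE 0.12, adjusted p = 6.48e-10). Both were above their vehicle ranges on every dosed array, and most vehicle values of Gadd45b were below 5.31. Gadd45a rose by 0.89 (adjusted p = 0.0224), a call lost without dosed replicate 4 or vehicle replicate 4 or 6 (adjusted p = 0.0502 to 0.0561). The kinase Plk2 rose by 0.59 and the death receptor Fas by 0.46. Cdkn1a, the classic p53 target that arrests the cycle, changed by -0.24 (adjusted p = 0.465) and Ccng1, another p53 target, by 0.03 (adjusted p = 0.885).

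Apoptosis genes stayed near the shares over all genes, with 3 of 24 higher, 3 lower and a median of -0.11. Those shares, 12.5% each, stand beside 11.5% higher and 9.43% lower over all genes. Without dosed replicate 6 the higher count was 5, and the lower count was 6 without dosed replicate 4 and 5 without vehicle replicate 6. Xiap, a caspase inhibitor, fell by 0.68 and Casp6, an effector caspase, by 0.42, while Diablo, which antagonises caspase inhibitors, rose by 0.43.

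Several lists of metabolic and secreted liver proteins had more falls than rises. Of 41 genes of the urea cycle and amino acid catabolism 20 fell and 5 rose, with a median of -0.19 against -0.01 over all genes, and 15 lay wholly below the vehicle range. Oat, ornithine aminotransferase, lay at 8.75 to 9.70 (median 9.05) at 485 mg/kg, against 10.23 to 11.54 (median 10.97) in vehicle livers (log2 change -1.80, SE 0.19, adjusted p = 3.46e-09). Gnmt, which uses up excess methionine as S-adenosylmethionine, lay at 10.50 to 11.17 (median 10.74) at 485 mg/kg, against 11.79 to 12.46 (median 12.25) in vehicle livers (log2 change -1.41, SE 0.12, adjusted p = 2.01e-11). Glul, the pericentral glutamine synthetase, lay at 10.15 to 10.78 (median 10.53) at 485 mg/kg, against 11.55 to 11.91 (median 11.80) in vehicle livers (log2 change -1.28, SE 0.11, adjusted p = 2.66e-11). No dosed array of these 3 genes reached its vehicle range. The serine dehydratase Sds fell by 1.11 with overlap and the histidine ammonia-lyase Hal by 0.95. Ddc, aromatic amino acid decarboxylase, went the other way, at 11.13 to 11.38 (median 11.33) at 485 mg/kg, against 10.01 to 10.37 (median 10.27) in vehicle livers (log2 change 1.06, SE 0.09, adjusted p = 4.47e-11). With the filter on dim probe sets the higher count was 8.

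Secreted proteins were mostly lower. Of 27 complement and coagulation genes 20 fell and 1 rose, with a median of -0.26 and 16 wholly below the vehicle range. Complement C6 fell by 0.89, C5 by 0.39, C1s by 0.39 and factor D (Cfd) by 0.43, and Serpind1, heparin cofactor, fell by 0.56. Pros1, the anticoagulant protein S, rose by 0.24. Of 27 acute phase and plasma proteins 15 fell, 2 rose and 10 were not called, with a median of -0.12 and single changes from -2.21 to 1.03. A2m, alpha-2-macroglobulin, the major acute phase protein of the rat, lay at 6.72 to 8.00 (median 7.37) at 485 mg/kg, against 8.56 to 10.33 (median 9.55) in vehicle livers (log2 change -2.21, SE 0.31, adjusted p = 1.4e-06). Serpina3n, a protease inhibitor of the acute phase, lay at 12.02 to 12.20 (median 12.10) at 485 mg/kg, against 12.88 to 13.10 (median 12.96) in vehicle livers (log2 change -0.87, SE 0.06, adjusted p = 3.09e-14). Orm1, alpha-1-acid glycoprotein, rose, at 13.36 to 13.72 (median 13.49) at 485 mg/kg, against 12.32 to 13.05 (median 12.89) in vehicle livers (log2 change 0.74, SE 0.12, adjusted p = 2.14e-05). All 3 were without overlap, so acute phase proteins did not share a direction. Itih1 and Itih2, which carry hyaluronan, fell by 0.51 and 0.35, and Serpina6, the corticosteroid-binding globulin, by 0.44.

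Lipoprotein genes followed, with 10 of 19 lower, 1 higher and a median of -0.15. Lipc, hepatic lipase, lay at 11.41 to 11.76 (median 11.58) at 485 mg/kg, against 12.11 to 12.48 (median 12.24) in vehicle livers (log2 change -0.68, SE 0.06, adjusted p = 1.36e-10). Lcat, which esterifies plasma cholesterol, lay at 12.26 to 12.40 (median 12.32) at 485 mg/kg, against 12.73 to 12.85 (median 12.77) in vehicle livers (log2 change -0.46, SE 0.04, adjusted p = 2.6e-11). Neither overlapped. Apoa5 and Apoc2, which promote triglyceride lipolysis, fell by 0.47 and 0.38, the phospholipid transfer protein Pltp by 0.55 and the HDL receptor Scarb1 by 0.35. Mttp, which loads lipid on nascent particles, rose by 0.27, and its partner Apob changed by -0.04 (adjusted p = 0.736).

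**Figure D4:**
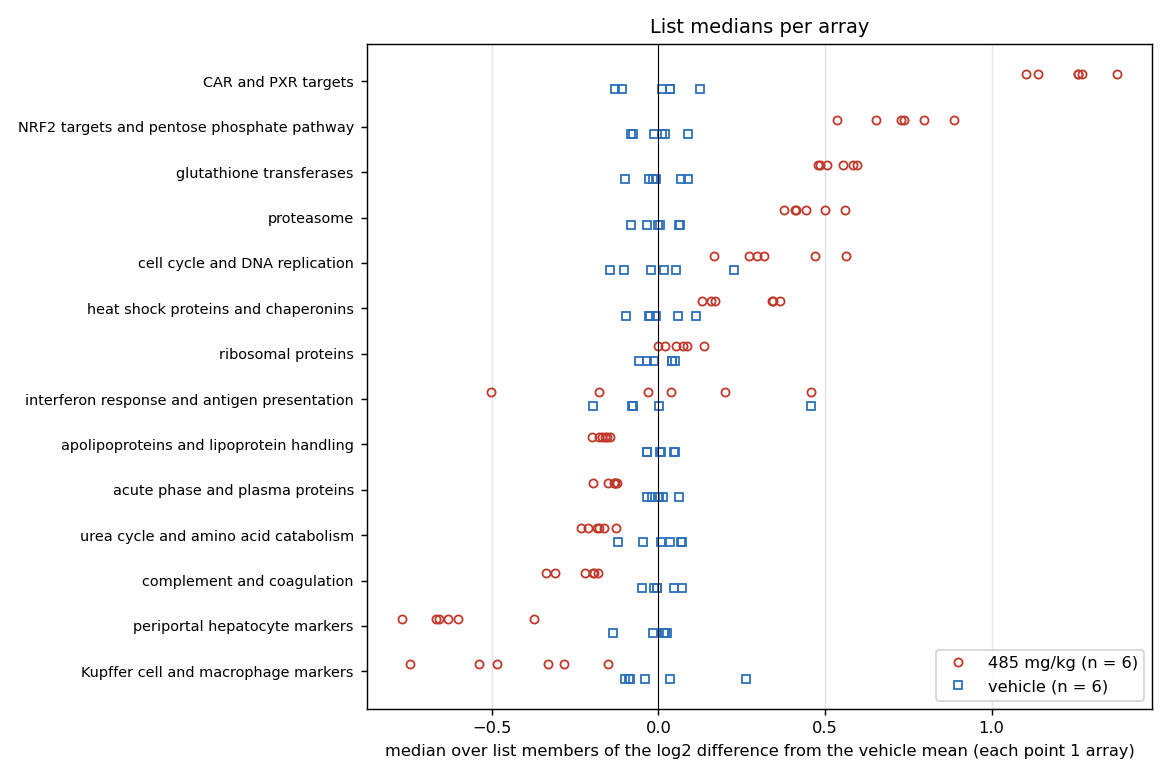
For 14 lists, the median over measured members of each array's log2 difference from the vehicle mean of the same probe set (horizontal axis, 1 point per array), 485 mg/kg in red circles above vehicle in blue squares, n = 6 each. The CAR and PXR list lies between 1.10 and 1.38 on dosed arrays, apart from the vehicle arrays at -0.13 to 0.12, while the groups overlap in the interferon, ribosomal and cell cycle lists.

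Of 18 measured genes of the growth hormone and IGF axis 8 fell and 0 rose, with a median of -0.25. Without replicate 3 of either group 1 member was also called higher. Socs2, a growth hormone target that damps its receptor's signal, lay at 5.25 to 6.75 (median 6.06) at 485 mg/kg, against 7.33 to 9.08 (median 8.11) in vehicle livers (log2 change -2.11, SE 0.43, adjusted p = 0.0005). Igfbp1, an IGF-binding protein under insulin control, lay at 5.04 to 9.17 (median 8.12) at 485 mg/kg, against 8.88 to 10.21 (median 9.56) in vehicle livers (log2 change -1.95, SE 0.50, adjusted p = 0.00514), with widely spread dosed values and some overlap. Onecut1, a hepatocyte transcription factor, lay at 6.91 to 9.71 (median 8.83) at 485 mg/kg, against 9.69 to 11.34 (median 10.74) in vehicle livers (log2 change -2.18, SE 0.64, adjusted p = 0.0159), and this call was lost without dosed replicate 4 (adjusted p = 0.0528). Igfbp2 fell by 1.10 and Ghr, the growth hormone receptor, by 0.69.

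Of 12 thyroid hormone genes 6 fell and 0 rose, with a median of -0.14. Serpina7, thyroxine-binding globulin, lay at 5.81 to 8.83 (median 8.21) at 485 mg/kg, against 9.96 to 11.48 (median 10.38) in vehicle livers (log2 change -2.61, SE 0.35, adjusted p = 5.76e-07). Crym, which binds thyroid hormone in the cytosol, lay at 9.46 to 9.82 (median 9.51) at 485 mg/kg, against 10.39 to 10.82 (median 10.53) in vehicle livers (log2 change -0.98, SE 0.08, adjusted p = 5.03e-11). Both were clear of the vehicle range, and the dosed values of Serpina7 were widely spread. Klf9, a hormone-responsive factor, fell by 0.63. Dio1, the deiodinase that marks thyroid state in liver, fell by 0.25 (adjusted p = 0.0485), at the edge of the threshold: 8 of the 12 leave-outs lost the call, those of dosed replicates 1, 2, 4 and 6 and vehicle replicates 2, 3, 4 and 5, with adjusted p up to 0.152. The call was also lost with the 12 arrays alone (0.121), array weights (0.0915), median centring (0.0755), quantile normalization (0.0766) and the ordinary test (0.0572). Thrsp, another hormone-responsive gene, changed by 0.44 (adjusted p = 0.4) over wide ranges in both groups, and the receptor Thrb by -0.16 (adjusted p = 0.198).

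Of 25 hepatocyte nuclear receptors and factors 4 fell and 0 rose, with a median of -0.04. That share of falls, 16.0%, stands beside 9.43% over all genes. Without vehicle replicate 4, 1 member was called higher. Foxa3, a forkhead factor, lay at 6.69 to 7.88 (median 7.03) at 485 mg/kg, against 7.98 to 8.90 (median 8.65) in vehicle livers (log2 change -1.35, SE 0.22, adjusted p = 1.57e-05), with no overlap. The glucocorticoid receptor Nr3c1 fell by 0.62 and Cebpa by 0.46. Hnf4a changed by -0.25 (adjusted p = 0.187) and Ppara, the fatty acid sensor, by 0.38 (adjusted p = 0.426). Bile acid synthesis had 4 of 13 genes lower and 1 higher, with a median of -0.08, and 8 of the 12 leave-outs removed the higher call. Those were dosed replicates 2, 4 and 6 and vehicle replicates 1, 3, 4, 5 and 6. Cyp8b1, which sets the share of cholic acid, fell by 0.99, Amacr by 0.43, the FGF receptor Fgfr4 by 0.33 and the conjugating enzyme Baat by 0.30. Cyp7a1, the rate-limiting enzyme, lay at 10.97 to 12.33 (median 11.63) at 485 mg/kg, against 10.42 to 12.21 (median 11.14) in vehicle livers (adjusted p = 0.375), with broad overlap.

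Several of the largest falls lay outside these pathway lists. Stac3, known for excitation-contraction coupling in skeletal muscle, lay at 6.14 to 7.82 (median 7.00) at 485 mg/kg, against 9.07 to 10.93 (median 10.24) in vehicle livers (log2 change -3.12, SE 0.39, adjusted p = 1.54e-07). Of the other 8 skeletal muscle markers none was called, and 7 of the 8 were below 5.31 in both groups, so the muscle list as a whole gives no parallel. Slc6a6, the taurine transporter, lay at 5.33 to 7.02 (median 6.17) at 485 mg/kg, against 7.37 to 9.37 (median 8.81) in vehicle livers (log2 change -2.49, SE 0.40, adjusted p = 1.57e-05). Nox4, an oxidase that makes hydrogen peroxide, lay at 4.43 to 6.04 (median 5.48) at 485 mg/kg, against 6.87 to 7.66 (median 7.38) in vehicle livers (log2 change -2.0, SE 0.20, adjusted p = 1.63e-09). All 3 were free of overlap. Nim1k, a kinase related to AMPK, lay at 3.88 to 4.82 (median 4.19) at 485 mg/kg, against 5.17 to 7.83 (median 6.90) in vehicle livers (log2 change -2.44, SE 0.37, adjusted p = 7e-06), with every dosed value below 5.31. Pbsn, a lipocalin first described in rat prostate, fell by 1.99, Sgk1, a kinase induced by glucocorticoids, by 1.97, and the tight junction protein Cldn1 by 1.43. Among the largest rises outside the lists, Zdhhc2, a palmitoyltransferase, lay at 8.68 to 9.54 (median 9.13) at 485 mg/kg, against 6.05 to 6.70 (median 6.25) in vehicle livers (log2 change 2.84, SE 0.12, adjusted p = 2.69e-19). Snx10, a sorting nexin of endosomes, rose by 2.67 and Ttc39a by 2.28, with vehicle levels of Ttc39a below 5.31.

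Lipid and energy metabolism held changes in both directions. Of 28 genes of fatty acid and triglyceride synthesis 4 rose and 6 fell, with a median of -0.01, and without vehicle replicate 1 the rises numbered 2. Those shares, 14.3% higher and 21.4% lower, stand beside 11.5% higher and 9.43% lower over all genes, so the rises were near the background. Elovl6, which lengthens palmitate, lay at 8.07 to 10.63 (median 9.22) at 485 mg/kg, against 7.13 to 8.71 (median 7.41) in vehicle livers (log2 change 1.66, SE 0.30, adjusted p = 7.02e-05), with overlap. Fads2, the delta-6 desaturase of polyunsaturated fatty acids, lay at 9.26 to 10.92 (median 10.54) at 485 mg/kg, against 11.23 to 11.75 (median 11.45) in vehicle livers (log2 change -1.16, SE 0.16, adjusted p = 1.64e-06), without overlap. Acaca, acetyl-CoA carboxylase, rose by 0.70, and the elongases of polyunsaturated chains Elovl5 and Elovl2 fell by 0.68 and 0.65. Fasn, fatty acid synthase, changed by 0.57 (adjusted p = 0.121) and became a call without dosed replicate 2 (adjusted p = 0.006) or vehicle replicate 6 (0.0487). Scd changed by -0.93 (adjusted p = 0.178) over wide ranges.

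Of 30 PPARA targets and fatty acid oxidation genes 10 rose and 4 fell, with a median of 0.13, and without vehicle replicate 5 the falls numbered 2. The shares were 33.3% higher and 13.3% lower, beside 11.5% and 9.43% over all genes. Cyp4a8, a fatty acid omega-hydroxylase, lay at 6.43 to 7.94 (median 7.37) at 485 mg/kg, against 4.76 to 5.50 (median 5.19) in vehicle livers (log2 change 2.12, SE 0.21, adjusted p = 9.07e-10), with dim vehicle levels and no overlap. The thioesterases Acot4 and Acot2 rose by 0.85 and 0.69, Decr2 of peroxisomal oxidation by 0.58 and Cpt2 by 0.49. Cpt1a, the gatekeeper of mitochondrial entry, fell by 0.83. The hormone Fgf21 changed by -1.0 (adjusted p = 0.172).

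Of 20 genes of gluconeogenesis and glycolysis 5 rose and 5 fell, with a median of -0.06, and without dosed replicate 4 the rises numbered 3. Pck1, the rate-limiting enzyme of gluconeogenesis, lay at 10.56 to 12.91 (median 12.02) at 485 mg/kg, against 13.05 to 13.64 (median 13.23) in vehicle livers (log2 change -1.36, SE 0.23, adjusted p = 3.19e-05). Pc, pyruvate carboxylase, lay at 8.50 to 9.01 (median 8.82) at 485 mg/kg, against 9.43 to 9.86 (median 9.58) in vehicle livers (log2 change -0.79, SE 0.11, adjusted p = 7.66e-07). Neither overlapped. Enzymes shared with glycolysis rose, Gpi by 0.66, Pgk1 by 0.48 and Eno1 by 0.31. Of 45 respiratory chain and ATP synthase genes 12 rose and 2 fell, with a median of 0.08. With the 12 arrays alone 7 rose and 1 fell. Falls numbered 4 with quantile normalization, and 1 with median centring or without dosed replicate 3 or vehicle replicate 2 or 4. Ndufs1 of complex I rose by 0.41 and Atp5f1c of the ATP synthase by 0.31.

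Some programmes stayed near or under the background share of calls, 20.9%. Of 30 genes of interferon response and antigen presentation 1 was called, Bst2, a tethering factor for enveloped viruses, which rose by 0.87. Dosed replicate 6 left out gave 2 higher, and 1 lower appeared without dosed replicate 4 or vehicle replicates 1 or 5. Of 28 ribosomal proteins 2 rose, with Rpl7 at 0.20, a call lost when its probe sets were averaged (adjusted p = 0.0781), and 1 rose without dosed replicate 2 or vehicle replicates 1 or 6. Ribosome biogenesis had 3 of 25 higher, with Nhp2 at 0.61, and 5 without vehicle replicate 6. Of 18 clock genes 2 fell, Nr1d1 by 0.41, and 1 fell without dosed replicates 2, 3 or 5 or vehicle replicates 1 or 3, while 2 were higher without vehicle replicate 4 and 1 without dosed replicate 4 or 6 or vehicle replicate 6. Of 21 cholesterol genes 2 rose and 1 fell, with Sc5d at 0.40 and the SREBP escort Scap at -0.56. Cholesterol genes with 1 array left out gave 1 higher without dosed replicate 1, 3, 4 or 6 or vehicle replicate 1, 2, 4 or 5, and 4 without vehicle replicate 6.

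Matrix genes also stayed under the background share of calls, with 4 of 26 lower, 0 higher and a median of -0.13. Their share of falls, 15.4%, stands beside 9.43% over all genes. Lox, which cross-links collagen, nevertheless had the second largest fall of all named genes, at 4.97 to 6.02 (median 5.94) at 485 mg/kg, against 7.51 to 9.82 (median 8.87) in vehicle livers (log2 change -2.95, SE 0.40, adjusted p = 7.66e-07). Its groups did not overlap. Fibronectin (Fn1) fell by 0.58, the membrane protease Mmp14 by 0.57 and Col18a1 by 0.45. Col3a1, a fibrillar collagen of fibroblasts, changed by -0.16 (adjusted p = 0.632).

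Markers of the liver's cell types were read beside these results. Of 9 periportal hepatocyte markers 6 fell and 0 rose (1 rose without dosed replicate 4 or vehicle replicate 4 or 6), with a median of -0.70, and their summed linear signal was 32854 to 37810 at 485 mg/kg, against 42729 to 47134 in vehicle livers. Of 10 pericentral markers 4 fell and 1, Cyp1a2, rose, with sums of 35425 to 43179 at 485 mg/kg, against 45543 to 50710 in vehicle livers. The zonal lists share Pck1, Sds and Hal, or Oat and Glul, with the lists of catabolism above, so they are no separate evidence. Of 9 general hepatocyte markers 5 fell and 0 rose, with sums of 154616 to 158899 at 485 mg/kg, against 170236 to 173552 in vehicle livers. This list consists mostly of plasma protein genes, such as Alb and Apob, so it is no separate evidence from the secreted proteins above.

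Of 11 Kupffer cell and macrophage markers 5 fell and 1 rose, with a median of -0.40 and sums of 5992 to 9136 at 485 mg/kg, against 8441 to 10983 in vehicle livers. Without dosed replicate 6 the falls numbered 3. Lyz2, lysozyme of macrophages, lay at 9.16 to 10.31 (median 9.90) at 485 mg/kg, against 10.46 to 11.32 (median 10.86) in vehicle livers (log2 change -0.96, SE 0.26, adjusted p = 0.00778). Cd163, the hemoglobin scavenger receptor, fell by 0.54, Csf1r by 0.52 and Clec4f, a lectin of Kupffer cells, by 0.62, the last a call lost without dosed replicate 6 (adjusted p = 0.0527). Cd14, the lipopolysaccharide co-receptor, rose by 0.69. Complement genes of the liver are made in part by these cells, and the part of the markers in those falls was not tested.

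Of 10 sinusoidal endothelial markers 3 fell, among them Kdr by 0.43 and Mrc1 by 0.40, with sums of 4318 to 4825 at 485 mg/kg, against 4715 to 5409 in vehicle livers. Of 13 stellate cell and fibroblast markers 1 rose and 2 fell, Rgs5 of pericytes rising by 0.81, with sums of 1488 to 2422 at 485 mg/kg, against 1612 to 2693 in vehicle livers. The falls were 0 without dosed replicate 1 or 3 or vehicle replicate 1 or 5, and 1 without dosed replicate 2 or vehicle replicate 3 or 6. Of 8 cholangiocyte markers 1 rose, Epcam, by 0.60, while 5 were below 5.31 in both groups. The sums, 944 to 1138 at 485 mg/kg against 671 to 842 in vehicle livers, follow that gene. The share that fell was 30% for endothelial, 15.4% for stellate and 0% for cholangiocyte markers, beside 9.43% over all genes. The share that rose was 0%, 7.69% and 12.5% in the same order, beside 11.5% over all genes.

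No blood cell marker was called higher. The share that fell was 37.5% for erythroid, 14.3% for T and NK cell and 20% for B and plasma cell markers. It was 0% for neutrophil and monocyte markers, and 9.43% over all genes. Of 8 erythroid markers 3 fell, with beta globin (Hbb) lower by 0.77 and Car1 by 0.97, and 6 were below 5.31 in both groups. Of 14 T and NK cell markers 2 fell, Cd8a by 0.53, with 8 below 5.31 in both groups, and 1 fell without dosed replicate 3 or 6 or vehicle replicate 2 and with array weights or median centring. Of 5 B and plasma cell markers 1 fell, Jchain, by 0.76, and 2 fell without dosed replicate 4 or vehicle replicate 3. None of 7 neutrophil and monocyte markers was called by limma, 5 were below 5.31 in both groups, and 1 fell without dosed replicate 1. Of markers of neighbouring tissues, 1 of 8 pancreatic acinar genes fell, Cela1, by 0.67, a call lost with the 12 arrays alone (adjusted p = 0.0575), with the other 7 below 5.31 in both groups, and 1 of 6 adipocyte genes, Cfd, which is counted with complement above. The part of any of these cell types in the liver gene changes was not tested.

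To see where the top dose differed from the next one, 485 mg/kg was tested against 48.5 mg/kg in the same fit. Of 31042 probe sets 1509 were called, 4.86%, with 792 higher (2.55%) and 717 lower (2.31%) at 485 mg/kg, and 1027 of 14217 genes (7.22%), 573 higher (4.03%) and 454 lower (3.19%). With only the 12 arrays of these groups in the fit the count was 880. Against vehicle, 48.5 mg/kg gave 1052 calls (3.39%). The changes from vehicle at the 2 doses share the vehicle arrays, so they are set side by side as values.

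CAR and PXR targets were split at this step. Of the 19 measured members 10 were higher and 1 lower at 485 than at 48.5 mg/kg. Ces2c differed by 1.63 (SE 0.13, adjusted p = 2.35e-10), Abcc3 by 1.28 (adjusted p = 1.95e-07), Aldh1a1 by 0.70 (adjusted p = 6.36e-07) and Cyp3a23-3a1 by 0.36 (adjusted p = 0.0283). The CYP2B joint probe set stood 3.65 above vehicle at 485 mg/kg and 3.45 at 48.5 mg/kg, and the difference of 0.19 (SE 0.17, adjusted p = 0.666) was not called. Its mean level was 14.44 at 485 mg/kg and 14.25 at 48.5 mg/kg, both near the upper end of the array's scale. The means of Cyp3a23-3a1, 14.48 at 485 mg/kg and 14.12 at 48.5 mg/kg, were as near to it. Ugt2b1 differed by 0.20 (adjusted p = 0.402) and Alas1 by 0.56 (adjusted p = 0.0641), also without a call. Cyp4a8, of the PPARA list, differed by 0.39 (adjusted p = 0.37) and was not called. Cyp1a1 stood 6.03 above vehicle at 485 mg/kg and 2.61 at 48.5 mg/kg, a difference of 3.42 (SE 0.26, adjusted p = 4.77e-11). Ahr stood at 0.76 at 485 mg/kg and 0.74 at 48.5 mg/kg, and its difference of 0.01 was not called (adjusted p = 0.983).

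NRF2 targets and transferases were higher again at the top dose. In the NRF2 list 19 of 23 measured members were higher at 485 than at 48.5 mg/kg and 0 lower. The glutathione transferases had 11 of 19 higher and 0 lower, and the proteasome 27 of 34 higher and 0 lower. Over all genes 4.03% were higher and 3.19% lower. The list medians against vehicle were 0.70, 0.58 and 0.46 at 485 mg/kg for these 3 lists, and 0.20, 0.26 and 0.21 at 48.5 mg/kg. Nqo1 differed by 1.32 (SE 0.12, adjusted p = 3.26e-09) and Gsta3 by 1.80 (SE 0.17, adjusted p = 3.67e-09).

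Some genes moved at 485 mg/kg with little change at 48.5 mg/kg. Sult2a6 stood at 2.24 from vehicle at 485 mg/kg and -0.24 at 48.5 mg/kg, a difference of 2.48 (SE 0.30, adjusted p = 6.36e-07). Akr1b7 stood at 2.72 at 485 mg/kg and 0.04 at 48.5 mg/kg, a difference of 2.68 (adjusted p = 0.00112). Dhrs7l1 stood at -2.81 at 485 mg/kg and -0.35 at 48.5 mg/kg, a difference of -2.47 (adjusted p = 4.77e-06), and Nox4 at -2.0 at 485 mg/kg and -0.21 at 48.5 mg/kg, a difference of -1.79 (adjusted p = 1.63e-07). None of these 4 was called at 48.5 mg/kg against vehicle. Other falls were already large at the lower dose: Lox stood at -2.95 at 485 mg/kg and -2.41 at 48.5 mg/kg, and its difference of -0.53 was not called (adjusted p = 0.587), nor was that of Socs2, -0.40 (adjusted p = 0.751). Among the metabolic lists, 10 of 41 urea cycle and amino acid genes were lower at 485 than at 48.5 mg/kg and 1 higher. Plasma protein genes had 11 of 27 lower and 1 higher, and complement and coagulation genes 5 of 27 lower and 0 higher. Over all genes 3.19% were lower and 4.03% higher at this step.

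**Figure D5:**
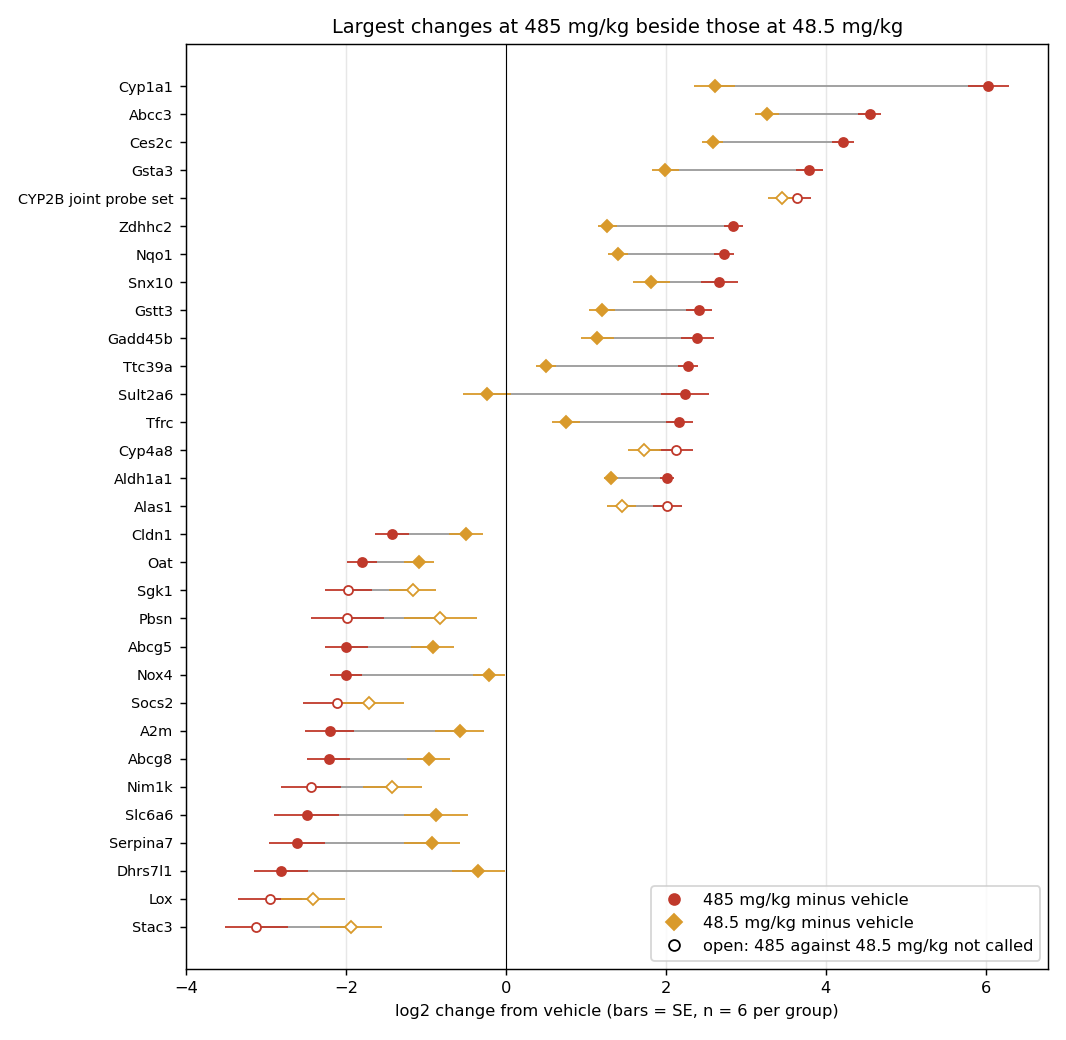
Log2 change from vehicle (horizontal axis, bars = SE, n = 6 per group) at 485 mg/kg (red circles) and 48.5 mg/kg (amber diamonds) for the 15 largest rises and 15 largest falls without overlap at 485 mg/kg and the CYP2B joint probe set, both doses set against the same vehicle arrays. Open symbols mark genes whose 485 against 48.5 mg/kg test was not called, such as the CYP2B joint probe set at 3.65 at 485 mg/kg and 3.45 at 48.5 mg/kg, and Sult2a6 shows the widest gap between doses after Cyp1a1.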

How the data were processed

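Rat liver RNA was measured on 36 Affymetrix rat arrays with 31099 probe sets, of which 57 control probe sets were left out. The deposited values are log2 values that the authors made with RMA in the R package affy, per the submitters' processing notes; RMA corrects background, quantile normalizes arrays and summarizes each probe set, and the versions are not given in the sources used here. No reads lie behind arrays, so the number of arrays limits the precision.

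Groups were taken from the treatment labels, 6 arrays each. A one-way linear model over the 36 arrays was fitted with limma 3.58.1 (lmFit, eBayes) in R 4.3.3 and checked on simulated data. The contrasts were 485 mg/kg minus vehicle, 485 minus 48.5 mg/kg and 48.5 mg/kg minus vehicle. P-values were two-sided and adjusted (Benjamini-Hochberg) over 31042 probe sets, with calls at adjusted p below 0.05. The design text names another linear model package, which was not used here. The standard error had a median of 0.081 on the log2 scale.

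The platform table assigned 20826 probe sets to 1 gene, 436 to several and 9780 to none, and 20758 matched the RefSeq gene table. A gene was represented by its probe set with the highest mean over 36 arrays. Named were the 15 largest rises and falls without overlap, up to 6 called and 4 uncalled members of each of 36 pathway and 14 marker lists, and a panel of 12. Lists shared 21 measured genes. The members and lists were chosen with earlier results of these data known. Alternatives were the arrays in the fit, weights, a filter on dim probe sets, centring, quantile normalization, variance models, a minimum change, mean probe sets, the replicate block and leaving out each array. The 3' to 5' difference used an exact permutation test over 12 arrays.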

Additional observations from a re-analysis of the deposited data

Results flagged for a closer look

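Within each group of 6 arrays, the highest or lowest value was compared with its nearest neighbour, and a gap that took up more of the group's range than Dixon's critical value allows marked that value for a second look. Of 432 such tests over 216 genes, 24 were marked (5.56%). Chance marks about 1 in 20 groups.

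Among the sensors' targets, Cyp1a1 stood apart at the low end in dosed replicate 1 (9.36, next 10.91), and the CYP2B joint probe set in vehicle replicate 3 (10.02, next 10.77). Ahr was low in vehicle replicate 6 (4.84, next 5.37), and Cyp1a2 high in vehicle replicate 5 (13.65, next 13.26). Cyp17a1 was low in vehicle replicate 1 at 6.90, against 7.62 for the nearest array. None of these gaps reached the other group except those of Cyp1a2 and Cyp17a1, whose groups overlapped.

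Of the other dosed arrays, replicate 2 was marked low for Elovl5 (11.62), Ddc (11.13), Hal (7.85), Alb (15.02) and Atp5f1c (12.65), and replicate 4 high for Acot2 (10.42). Other vehicle arrays marked were replicate 3 for Gsr (8.56), Aox1 (11.36), Sec24d (10.35) and Alb (15.07), replicate 2 for Akr1c14 (11.76), replicate 1 for Fmo1 (11.40) and replicate 4 for Ddc (10.01) and Psmd2 (9.82). Vehicle replicate 5 was marked for Abcg8 (5.99), Cfd (7.77) and Ccna2 (5.48), and replicate 6 for C5 (11.17) and Nr1d1 (7.08). The albumin values span 15.02 to 15.07 in all, near the upper end of the array's scale.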

How the results depend on the processing

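The 485 mg/kg against vehicle count of 4665 lay between 3920 and 4927 with the 12 arrays alone, array weights, the dim filter, centring, quantile normalization, the ordinary and the trend and robust tests, and without 4.85 mg/kg replicate 6 (an alternative chosen after seeing the data). Median centring gave 2662 higher and 1861 lower. Leaving out 1 array gave 4130 to 4549 calls (2182 to 2419 higher, 1899 to 2244 lower). A required change of 1.5-fold as the null left 177 calls, 129 higher and 48 lower, by that test's own construction.

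Against 48.5 mg/kg, fitting only the 12 arrays gave 880 calls (453 higher, 427 lower) with fewer samples behind the spread, and leaving out 1 array 1127 to 1530 (640 to 807 higher, 487 to 791 lower). The 3' to 5' difference ranged from -0.0572 to -0.0198 with 1 array left out. It passed the threshold without vehicle replicate 6 (-0.0572, exact permutation p = 0.0498). With Hexokinase alone its sign turned, to 0.00554 (exact permutation p = 0.935). The cause was not tested.

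With the replicate number as a block 4745 probe sets were called (2461 higher, 2284 lower), and 1558 against 48.5 mg/kg. Same-numbered dosed and vehicle arrays correlated at -0.119 to 0.136 in their deviations from the group means. No dosed array matched best with its own number. The labels do not say what a replicate number stands for, and whether same-numbered samples share a day or cage was not tested.

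Of 216 named genes 190 were called, 179 of them under every alternative other than the minimum change, which kept 55, and 3 of 26 uncalled genes gained a call. The sign turned in 5 uncalled genes. Hnf4a was 0.0410 with probe sets averaged. Alb was 0.0124 with median centring and -0.00685 to 0.00158 with 1 array left out. Atf4 was -0.00802 with quantile normalization and -0.0166 to 0.109 with 1 array left out. That range was -0.0911 to 0.0409 for Nfe2l2 and -0.0567 to 0.0193 for Nr1i2. Precision is limited by 6 arrays a group and, for dim genes, by signal near background.

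Counts of list members also moved by more than 1.5 times under settings other than leaving out an array. With the 12 arrays alone, lower members numbered 0 for heme, growth arrest, cell cycle, stellate and pancreatic genes, and higher members 0 for bile acid synthesis and pericentral markers, 1 for cholesterol, ribosomal and clock genes and 2 for interferon genes, and 1 clock gene was lower. The filter on dim probe sets gave 7 lower oxidoreductases, 5 lower apoptosis genes, 5 higher ribosome biogenesis genes, 2 lower B cell markers, 2 higher and 1 lower interferon genes and 1 higher clock and periportal gene. Quantile normalization gave 2 lower heme, 0 higher bile acid, 1 higher cholesterol, 2 higher interferon and 1 lower growth arrest genes. Array weights gave 5 lower apoptosis genes, 1 lower AhR target and 1 higher clock and periportal gene. Median centring gave 2 higher interferon, 1 higher clock and 1 lower ER genes. The ordinary test gave 1 lower member for growth arrest, ATF4, clock and stellate genes, as the trend and robust test did for ATF4 and clock genes. The replicate block gave 4 lower T and NK cell markers against 2, 2 lower B cell markers, and 2 higher and 1 lower interferon genes, and Dio1 lost its call (adjusted p = 0.0553).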

Other observations

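Chosen after their values were seen, 4 probe sets outside the named genes held 1 or 2 arrays far from the rest of their group. Probe set 1368718_at, which has no gene in the platform table, had the largest change of all uncalled probe sets. Its dosed arrays read 14.02, 14.40, 14.22, 14.04, 4.95 and 13.85 in replicate order, against 8.25 to 8.82 in vehicle livers. Its limma log2 change was 3.95 (SE 1.54, adjusted p = 0.0803), with 5 of 6 dosed arrays above the vehicle range and replicate 5 below it. At 48.5 mg/kg the same probe set read 13.04 to 13.81 on 5 arrays and 4.64 on replicate 4.

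Probe set 1387825_at, assigned to Ugt2b, read 13.12 to 13.47 at 485 mg/kg, against 13.16 to 13.43 on 5 vehicle arrays and 4.95 on vehicle replicate 2 (log2 change 1.45, limma adjusted p = 0.525). Probe set 1370428_x_at, assigned to several genes, read 10.36 to 11.54 on 4 dosed arrays and 8.15 and 4.15 on dosed replicates 1 and 6, against 10.60 to 11.51 in vehicle livers (log2 change -1.63, limma adjusted p = 0.207). Probe set 1382137_at, assigned to Abhd3, read 2.95 to 3.91 at 485 mg/kg, against 3.12 to 3.39 on 4 vehicle arrays and 7.43 and 7.88 on vehicle replicates 2 and 3 (log2 change -1.46, limma adjusted p = 0.277), and 7.37 on replicate 4 of 48.5 mg/kg.

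Of 31042 probe sets 8026 had an unadjusted p under 0.05. Among calls, 53.5% of the rises and 39.7% of the falls had all 6 dosed arrays outside the vehicle range, and 6 genes had own probe sets called in both directions.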
